A study of Mus musculus with 6 samples.

Results

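Expression of 10 genes that encode calcium sensors of membrane fusion was followed in the hippocampus of adult mice: Doc2a and Doc2b, the rabphilin gene Rph3a, and the synaptotagmin genes Syt1, Syt2, Syt3, Syt4, Syt5, Syt7 and Syt9. They were taken as a named set of DOC2, rabphilin and synaptotagmin genes and matched by symbol to Ensembl identifiers. All 10 were among the 48795 genes of the count table. The members and the gene lists below were chosen with earlier results of these data known. Counts of called genes in them, beside the shares over all tested genes, are therefore descriptions. The knockout (KO) mice carried floxed alleles of Kdm1a and Kdm5c, on a C57BL/6J background, together with CamKIIα-CreERT2, a tamoxifen-dependent recombinase limited to forebrain principal neurons. Recombination removes exons 5 and 6 of Kdm1a and exons 11 and 12 of Kdm5c, and both genes encode demethylases of lysine 4 on histone H3. The other group was labelled wild type (WT), and whether its mice carried floxed alleles or the recombinase is not given in the sources used here. Both groups were treated with tamoxifen, with an age of 2 to 3 months stated for that treatment, and each had 3 libraries of polyadenylated RNA. The libraries were made from whole dissected hippocampus, so cells without the recombinase contributed to every value. Nothing in the labels ties the libraries to separate animals, and p-values set group differences against the spread between these libraries.

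A synaptic vesicle fuses when SNARE proteins on the vesicle and the plasma membrane zip together, and calcium sensors time that step. The sensors carry a pair of C2 domains, which bind calcium through acidic side chains in loops at the domain's edge and then insert into lipid membrane and contact the SNAREs. SYT1, SYT2 and SYT9 act in fast, synchronous release. SYT7 and SYT3 bind calcium with higher affinity and serve slower steps such as asynchronous release, facilitation and vesicle replenishment. DOC2 proteins have been tied to spontaneous and asynchronous release. SYT1 is the main fast sensor of hippocampal excitatory terminals, and SYT2 is found in fast-spiking inhibitory cells.

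The shared calcium-binding loop is shown for 9 of the members because its acidic side chains bind the calcium that these proteins sense. Each line gives 27 coding bases, 5′ to 3′, of the C2A loop between the first and the last of 3 calcium positions, read from the GENCODE M21 transcripts (GRCm38). Capitals mark codons for aspartate at those 3 positions.
Doc2a: GATgagGACaagctgagccacaatgaa
Doc2b: GATgagGACaaattccgccacaatgag
Rph3a: GACgagGACaagtttggccacaacgag
Syt1: GATtttGACcgcttctccaagcacGAC
Syt2: GACtttGACcgcttctctaagcatGAC
Syt3: GACttcGACcgcttctcgcggcatGAT
Syt5: GACtttGATcggttctcccgcaacGAT
Syt7: GATtatGACcgtttcagccgcaatGAC
Syt9: GACtttGACaggttctctcgccatGAC

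All 6 synaptotagmin genes in this list had an aspartate codon at 3 of 3 positions. Doc2a, Doc2b and Rph3a had it at 2 of 3, and their last codon (gaa or gag) was one for glutamate, which is also acidic. Over the 5 calcium positions that line up with those of Syt1 in each domain, Doc2a, Doc2b and Rph3a had 4 aspartate codons in the first domain, C2A, and 5 in the second. Syt1 and Syt7 had 5 in both, and Syt2, Syt3, Syt5 and Syt9 had 5 in the first and 4 in the second. Syt4, whose sequence is not printed, had 4 in the first domain and 3 in the second. No stretch of 50 bases was shared between transcripts of different members, so reads of that length would not be split among them.

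Transcripts of Doc2a and Doc2b were higher in the KO, while those of rabphilin and the 7 synaptotagmins did not pass the test. Doc2a rose about 3.14-fold from a low level, and Doc2b, already abundant, rose 1.26-fold. Of the 10 genes, all of which had enough counts to be tested, 2 rose and 0 fell by edgeR's quasi-likelihood test at an adjusted p under 0.05. Of all 16861 genes tested, 5.90% rose and 1.05% fell. At an unadjusted p under 0.05, 3 members were higher and 1 was lower. The share of all tested genes at that unadjusted threshold is not given here, so these counts cannot be set against it. DESeq2 and limma-voom each called 2 rises and 1 fall, the fall being Syt4. Over all genes, DESeq2 called 911 rises and 183 falls, and limma-voom 987 and 174. Every KO library lay above every WT library for 3 members (14.0% of all tested genes) and below for 1 (11.2%). The median log2 fold change of the 10 was 0.03, against -0.01 over all tested genes. Levels are given in CPM, read counts divided by the library total after TMM scaling for library composition and multiplied by a fixed constant. Folds are KO over WT, and adjusted p-values below come from edgeR (quasi-likelihood, Benjamini-Hochberg over all tested genes) unless another tool is named.

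**Figure D1:**
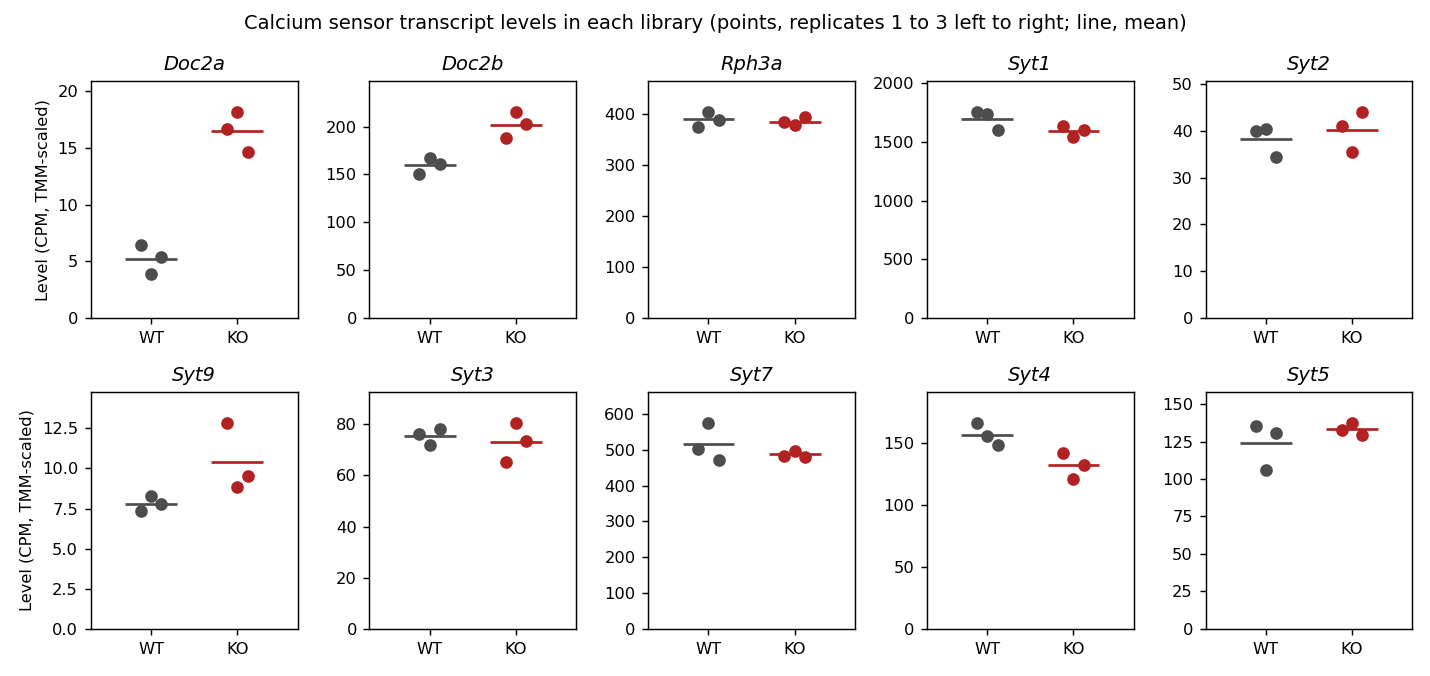
Level of each of the 10 calcium sensor genes in CPM (y axis, from 0, a separate scale for each gene) in the 3 WT and 3 KO libraries. Points are libraries and lines are group means. The KO points of Doc2a and Doc2b all sit above the WT points, as do those of Syt9 by a small margin, and those of Syt4 all sit below.

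The libraries were of like depth, with 19309576 to 19700249 counted reads each. Kdm1a fell from 73.7 ± 3.95 to 38.6 ± 1.29 CPM (mean ± SD, n = 3 each, adjusted p = 4.32e-07), and Kdm5c was at 79.5 ± 2.97 in WT and 70.6 ± 4.67 CPM in KO (adjusted p = 0.143). Both are whole-gene counts that include exons outside the deletions. The 2 most abundant principal neuron markers overlapped between the groups. Camk2a was at 4785 ± 208 CPM in WT and 4521 ± 226 CPM in KO, and Slc17a7 at 1336 ± 107 and 1318 ± 55.1 CPM. Of the 10 principal neuron markers, 2 had a log2 fold change above 0. At an adjusted p under 0.05 (edgeR), 1 rose and 1 fell, beside 5.90% and 1.05% over all tested genes. Of the 12 interneuron markers, 4 were above 0, and 0 rose and 0 fell. Summed levels of several marker lists for other cells differed between the groups, and such sums weight the abundant genes most. Over all tested genes, 8125 of 16861 had a log2 fold change above 0. All 9 astrocyte markers had a log2 fold change above 0, and their sum was 5415 to 5672 CPM in WT and 6017 to 6093 CPM in KO. All 8 oligodendrocyte markers were likewise above 0, with sums of 5205 to 5640 CPM in WT and 5775 to 6501 CPM in KO. All 7 microglia markers were above 0, with sums of 312 to 358 and 357 to 409 CPM that overlapped by less than 1 CPM. The 8 vascular markers, all above 0 too, summed to 376 to 381 and 382 to 447 CPM. By edgeR's test, 1 astrocyte, 1 oligodendrocyte, 1 vascular and 0 microglia markers rose at an adjusted p under 0.05, and 0 fell. These counts, too, stand beside 5.90% and 1.05% over all tested genes. The 6 choroid plexus and ependyma markers summed to 39.5 to 57.5 CPM in WT and 73.2 to 133 CPM in KO, with 5 of 6 above 0. Of these, only Kl was called, rising from 22.0 ± 1.37 to 58.9 ± 3.45 CPM, and each of the others overlapped between the groups. Ttr was lowest in KO replicate 2 at 1.60 CPM, where Kl at 55.1 CPM made up most of the sum. The gap between the summed levels therefore depended on Kl. The 10 tested markers of thalamus, habenula and striatum summed to 109 to 118 and 122 to 133 CPM, with 5 of 10 above 0. By the same test 3 of these 10 rose and 0 fell, beside 5.90% and 1.05% over all tested genes. Sums of the 12 interneuron markers overlapped, 1410 to 1461 against 1367 to 1425 CPM, as did those of the 4 oligodendrocyte precursor markers, 291 to 308 against 291 to 314 CPM, and of the 10 principal neuron markers, 7449 to 7963 against 6872 to 7657 CPM. No marker of these lists was at 0 in every library, and the part that other cell types have in the values of the calcium sensors was not tested. Fewer cells of a type and less RNA per cell cannot be told apart in such samples.

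Doc2a had the largest log2 fold change of the 10 genes. The gene (ENSMUSG00000052301, chromosome 7, 126847416 to 126852705, plus strand, GRCm38) encodes a sensor with high calcium affinity that has been linked to asynchronous and spontaneous release at glutamatergic synapses. It had 126, 74 and 104 reads in WT and 327, 352 and 289 in KO. After scaling, these were 6.42, 3.87 and 5.41 CPM in WT and 16.7, 18.1 and 14.7 CPM in KO. Every KO library was well above the highest WT library. On the log2 scale the difference was 1.65 (SE 0.153, adjusted p = 6.81e-06), a 3.14-fold rise with a 95% interval of 2.50 to 3.95. By size this was the rise of rank 163 among the 16861 tested genes. It remained past the threshold in all 13 alternatives run gene by gene, with log2 fold changes of 1.48 to 1.83 and adjusted p-values of at most 4.98e-05 from the tool of each.

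The annotation of Doc2a overlaps that of Ino80e, which encodes a subunit of a chromatin remodelling complex and is read from the opposite strand. The 2 genes share 1103 exon bases, 39.4% of the exon length of Doc2a, and the strand setting of the counting is not given in the sources used here. Reads in the shared stretch may therefore have been left out of both genes or assigned to either one. Ino80e had 527, 470 and 594 reads in WT and 559, 582 and 534 in KO. Its levels of 24.6 to 30.9 CPM in WT and 27.1 to 30.0 CPM in KO overlapped (log2 fold change 0.06, SE 0.0912, 95% interval -0.14 to 0.25, adjusted p = 0.792).

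Doc2b, a close relative, started from a far higher level than Doc2a and rose by a smaller factor. It lies on chromosome 11, 75768966 to 75796049, minus strand (ENSMUSG00000020848), and its product binds Munc13 and SNARE proteins and acts in vesicle release and in insulin secretion. Its level was 151, 168 and 161 CPM in WT and 188, 215 and 203 CPM in KO. All KO libraries lay above all WT libraries. The change on the log2 scale was 0.34 (SE 0.0667, adjusted p = 0.00582), a rise of 26.3% with a 95% interval of 14.4 to 39.5%. It also passed in all 13 alternatives, the largest adjusted p being 0.0461 without KO replicate 2. Its exons share 241 bases (5.53%) with Gm12339, a noncoding transcript on the opposite strand that held 8 to 15 reads per library.

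**Figure D2:**
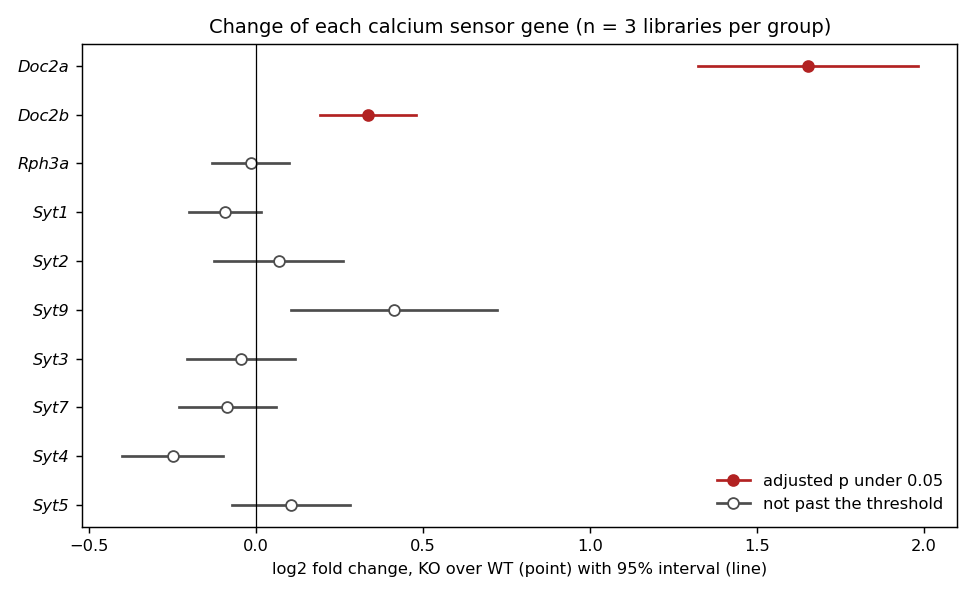
Log2 fold change of each member (point) with its 95% interval (line) from edgeR's quasi-likelihood fit. Filled red points are Doc2a at 1.65 and Doc2b at 0.34, the members past the adjusted threshold. The intervals of Syt9 and Syt4 also leave out 0 but did not pass after adjustment over all genes.

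The third DOC2 gene, Doc2g, which is not one of the 10, was at 2.40 ± 0.191 CPM in WT and 2.28 ± 0.249 in KO with overlapping libraries (log2 fold change -0.07, SE 0.187, adjusted p = 0.873). Because Doc2a and Doc2b rose by unequal factors, their proportion shifted. Per length of exon, Doc2a stood at 6.63, 3.59 and 5.23% of Doc2b in WT and at 13.8, 13.1 and 11.3% in KO. The means were 5.15 ± 1.52% and 12.7 ± 1.32% (n = 3 each, exact permutation p = 0.1, two-sided, the smallest that 3 against 3 allows). Doc2b was the more abundant of this pair in every library. With the bases shared with Ino80e taken out of the length of Doc2a, and all its reads kept, the means were 8.49 ± 2.51% in WT and 21.0 ± 2.18% in KO. Set against Syt1, the most abundant member, the summed level of Doc2a and Doc2b per length was 18.9 ± 1.37% in WT and 27.3 ± 2.57% in KO, and the libraries of the groups did not overlap.

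Rph3a, which encodes rabphilin, a C2-domain protein bound by the vesicle GTPase RAB3A, is the nearest relative of the DOC2 genes in this set. It lies on chromosome 5, 120940499 to 121010092, minus strand (ENSMUSG00000029608). Its level was 374, 403 and 388 CPM in WT and 384, 377 and 392 CPM in KO, and every KO value fell inside the WT range. Its log2 fold change was -0.02 (SE 0.0536, adjusted p = 0.911), a difference of -1.04% with a 95% interval of -8.65 to 7.19%.

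Among the sensors of fast release, Syt1 was the most abundant and Syt9 the one whose groups did not overlap. Syt1 (ENSMUSG00000035864, chromosome 10, 108497650 to 109010982, minus strand) measured 1755, 1734 and 1603 CPM in WT and 1632, 1546 and 1600 CPM in KO. The highest KO library exceeded the lowest WT library, so the groups overlapped. Syt1 had a log2 fold change of -0.09 (SE 0.0501, adjusted p = 0.335), a difference of -6.17% with a 95% interval of -12.9 to 1.11%.

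Syt2 (ENSMUSG00000026452, chromosome 1, 134646677 to 134762593, plus strand), the close relative of Syt1, measured 39.9, 40.4 and 34.3 CPM in WT and 40.9, 35.4 and 44.0 CPM in KO. The groups overlapped (log2 fold change 0.07, SE 0.0900, adjusted p = 0.731), with a difference of 4.91% and a 95% interval of -8.26 to 19.98%.

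Syt9 (ENSMUSG00000062542, chromosome 7, 107370728 to 107548656, plus strand) was sparse, with 144, 159 and 149 reads in WT and 252, 171 and 188 in KO. Its level was 7.34, 8.31 and 7.75 CPM in WT and 12.8, 8.81 and 9.54 CPM in KO. All KO libraries lay above all WT libraries, though KO replicate 1 stood well apart from the other two. Its log2 fold change was 0.42 (SE 0.143), which missed the threshold (adjusted p = 0.111), and the 95% interval of the difference was 7.68 to 65.1%. Leaving out KO replicate 1, the log2 fold change was 0.23 and the adjusted p 0.400.

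The high-affinity sensors Syt7 and Syt3 overlapped between the groups. Syt7 (ENSMUSG00000024743, chromosome 19, 10389090 to 10453180, plus strand) measured 502, 576 and 473 CPM in WT and 483, 498 and 480 CPM in KO. The WT libraries were the more spread, and all KO values lay within their range. Syt7 had a log2 fold change of -0.09 (SE 0.0676, adjusted p = 0.527), a difference of -5.77% with a 95% interval of -14.8 to 4.22%. Syt3 (ENSMUSG00000030731, chromosome 7, 44384102 to 44400187, plus strand), also known for the internalisation of AMPA receptors at postsynaptic sites, measured 76.3, 71.9 and 78.0 CPM in WT and 65.2, 80.6 and 73.6 CPM in KO. Here the KO libraries were the more spread, with values on both sides of the WT range. Syt3 had a log2 fold change of -0.04 (SE 0.0749, adjusted p = 0.802), a difference of -2.99% with a 95% interval of -13.2 to 8.47%.

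Syt4 and Syt5 encode synaptotagmins known from dense-core vesicles as well as synapses, and SYT4 has an altered calcium site in its first C2 domain. Syt4 (ENSMUSG00000024261, chromosome 18, 31437808 to 31447406, minus strand) measured 166, 155 and 148 CPM in WT and 142, 121 and 132 CPM in KO. All KO libraries lay below all WT libraries. Its log2 fold change of -0.25 (SE 0.0706) sat at the edge of the test with an adjusted p of 0.0507, and the 95% interval of the difference was -24.2 to -6.48%. The call depended on the setting: the adjusted p was 0.0201 with DESeq2, 0.0464 with limma-voom, 0.0499 with RLE scaling in edgeR and 0.0182 in edgeR with no filter on low counts. In edgeR's quasi-likelihood test it was 0.0243 without WT replicate 3 and 0.0417 without KO replicate 1. Over all 13 alternatives the adjusted p ranged from 0.0182 to 0.238, and the log2 fold change was below 0 in each. The exons of Syt4 share 566 bases (14.5%) with the antisense gene Gm26658, which had 9 to 11 reads per library.

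Syt5 (ENSMUSG00000004961, chromosome 7, 4539765 to 4547541, minus strand) measured 135, 106 and 131 CPM in WT and 133, 138 and 129 CPM in KO. WT replicate 2 was the low library, and the groups overlapped. Syt5 had a log2 fold change of 0.10 (SE 0.0818, adjusted p = 0.522), a difference of 7.54% with a 95% interval of -4.82 to 21.5%.

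Compared per kilobase (kb) of exon, the members covered a wide range. The order in WT was Syt1 at 204 ± 9.84 CPM per kb, Rph3a at 83.7 ± 3.15, Syt7 at 69.1 ± 7.08, Syt5 at 52.1 ± 6.67, Syt4 at 40.2 ± 2.35, Doc2b at 36.6 ± 1.96, Syt3 at 24.2 ± 1.01, Syt2 at 5.01 ± 0.441, Syt9 at 1.96 ± 0.122 and Doc2a at 1.87 ± 0.459 CPM per kb. On full exon lengths, neighbours in this order were apart in every library except Syt4 with Doc2b and Syt9 with Doc2a, whose libraries overlapped. In KO, Doc2b at 46.3 ± 3.16 CPM per kb lay above Syt4 at 33.9 ± 2.73 in every library. Doc2a at 5.88 ± 0.623 CPM per kb lay above Syt9 at 2.61 ± 0.541 and overlapped Syt2 at 5.25 ± 0.569. The place of Doc2a depended on the length used. With all its reads kept and the exon bases shared with Ino80e left out of its length, Doc2a came to 3.78, 2.27 and 3.18 CPM per kb in WT. In KO it came to 9.81, 10.7 and 8.62 CPM per kb. On that length it lay above Syt9 in every WT library and above Syt2 in every KO library. These values hold only if reads in the shared bases were left out of Doc2a, which is not known. Syt4, Doc2b and Syt7 also share exon bases with other genes (14.5, 5.53 and 5.13% of their exon length). Their places could likewise depend on the length used, and were not worked out without those bases. The summed level of the 10 members was 518 ± 13.7 CPM per kb in WT and 512 ± 1.56 in KO, of which Syt1 made up 39.3 ± 0.895% and 37.3 ± 0.906%.

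**Figure D3:**
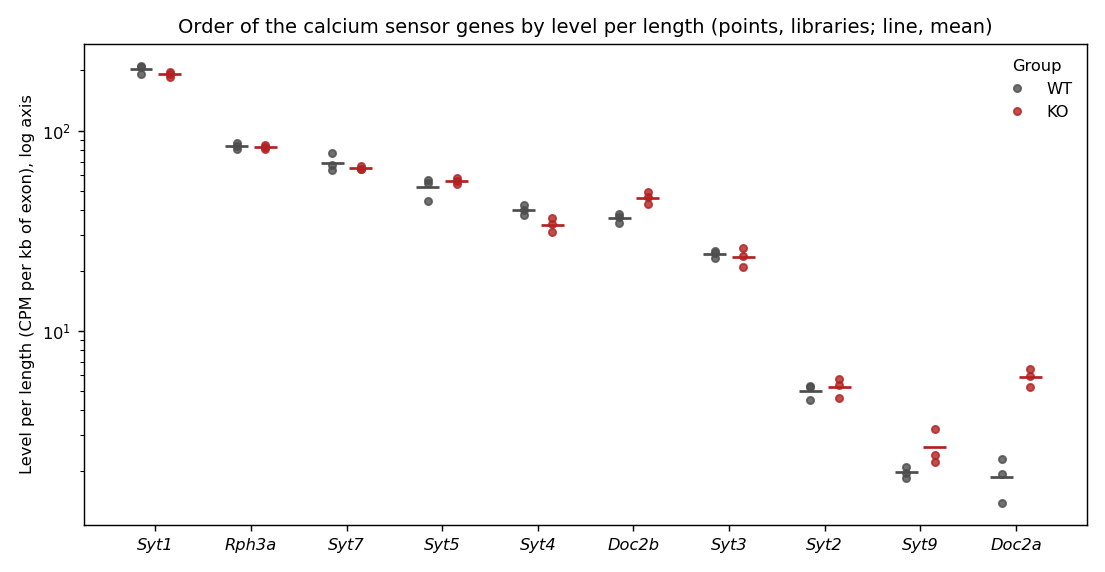
Level per length of each member in CPM per kb of exon (y axis, log scale), ordered by the WT mean. Points are libraries and lines are means. With its full exon length, Doc2a moves from beside Syt9 in WT (1.87 against 1.96) to beside Syt2 in KO (5.88 against 5.25). With all its reads kept and the bases shared with Ino80e left out of its length, it would stand at 3.08 and 9.70. The other members keep their level to within a factor of 1.33.

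Among related genes outside the 10, Syt17, Rph3al and Sytl1 rose. The list held 20 genes: the remaining synaptotagmins, the synaptotagmin-like genes, the extended synaptotagmins, Doc2g and Rph3al, a relative of rabphilin without C2 domains. Syt8 and Sytl3 had at most 2 reads in any library and were not tested. Of the 18 tested, 3 rose and 0 fell by edgeR's quasi-likelihood test, beside 5.90% and 1.05% over all genes. At an unadjusted p under 0.05 the counts were 9 and 0, without the share of all tested genes at that threshold to set beside them. DESeq2 called 2 rises and 0 falls and limma-voom 3 and 0. A log2 fold change above 0 was seen in 15 of the 18, beside 8125 of all 16861 tested genes. The median was 0.22 against -0.01 over all tested genes.

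Syt17, whose product is an atypical synaptotagmin of the secretory and endosomal pathway, went from 121 ± 3.98 to 156 ± 9.73 CPM (log2 fold change 0.37, SE 0.0629, adjusted p = 0.00209). Rph3al, which encodes the RAB-binding protein Noc2 that acts in exocytosis of endocrine cells, went from 5.17 ± 0.453 to 8.43 ± 0.967 CPM (0.70, SE 0.135, adjusted p = 0.00460). Sytl1, a RAB27 effector, went from 2.03 ± 0.0885 to 3.34 ± 0.168 CPM (0.71, SE 0.172, adjusted p = 0.0211). The call of Sytl1 was lost with DESeq2 (adjusted p = 0.0895) and without WT replicate 1 or 2 or KO replicate 1, 2 or 3, where edgeR's adjusted p was 0.0530 to 0.0760. The most abundant gene of the list, Syt11, stood at 852 ± 67.6 in WT and 858 ± 10.5 CPM in KO (adjusted p = 0.948).

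Among genes for the proteins on which the sensors act, more fell than rose in the main fit, mostly by small amounts. That balance did not hold in every alternative. The list of SNAREs, their regulators, priming factors, RAB3 and RAB27 GTPases and SV2 proteins had 42 genes in the count table, of which 41 were tested (Cplx4 had no reads). In this list 2 rose and 6 fell, beside 5.90% and 1.05% over all tested genes, and the median log2 fold change was -0.06. The largest call in either direction by fold was Unc13c, a priming factor, which fell from 25.2 ± 6.30 to 15.2 ± 3.94 CPM although its libraries overlapped between groups (-0.73, SE 0.187, adjusted p = 0.0289). The call of Unc13c was lost with DESeq2 (adjusted p = 0.165) and in edgeR on leaving out WT replicate 1 (0.123), WT replicate 2 (0.111), KO replicate 2 (0.109) or KO replicate 3 (0.113).

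The 6 genes of that list with the smallest adjusted p were Cadps2, Unc13a, Stx4a, Rims1, Vamp1 and Snap25. Cadps2, a priming factor of dense-core vesicles, rose from 102 ± 3.89 to 133 ± 1.66 CPM (0.39 on the log2 scale, SE 0.0578, adjusted p = 6.21e-04). Stx4a, which encodes the plasma membrane SNARE syntaxin 4, rose from 44.5 ± 0.859 to 53.9 ± 1.60 CPM (0.28, SE 0.0614, adjusted p = 0.0124). Unc13a, the main priming factor of excitatory terminals, fell from 579 ± 37.5 to 466 ± 11.7 CPM (-0.31, SE 0.0578, adjusted p = 0.00361), and Rims1, an active zone scaffold, fell by 0.28 on the log2 scale (SE 0.0649, adjusted p = 0.0174). Vamp1, a vesicle SNARE, fell from 159 ± 4.68 to 136 ± 1.82 CPM (adjusted p = 0.0224), and Snap25, a SNARE of the plasma membrane, fell from 2158 ± 177 to 1844 ± 45.2 CPM (adjusted p = 0.0279). The GTPase gene Rab3c was the last of those that fell (adjusted p = 0.0458). Its call was lost in 7 of 13 alternatives: with library size alone (edgeR adjusted p = 0.0737), with at least 1 CPM in 3 libraries (0.0566), and in all fits that left out a library except that without WT replicate 3 (0.0533 to 0.212). Rims1, Vamp1 and Snap25 each lost their call when any KO library was left out, and Vamp1 and Snap25 also without WT replicate 1. In those fits their edgeR adjusted p was 0.0520 to 0.115. The falls in this list dropped to 2 when WT replicate 1 was left out, to 2 when KO replicate 1 was, and to 1 when either of the other KO libraries was. Falls did not outnumber rises in these fits or at a threshold of 0.01. Leaving out KO replicate 3 also took the rises to 1, since Stx4a then had an edgeR adjusted p of 0.0956.

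**Figure D4:**
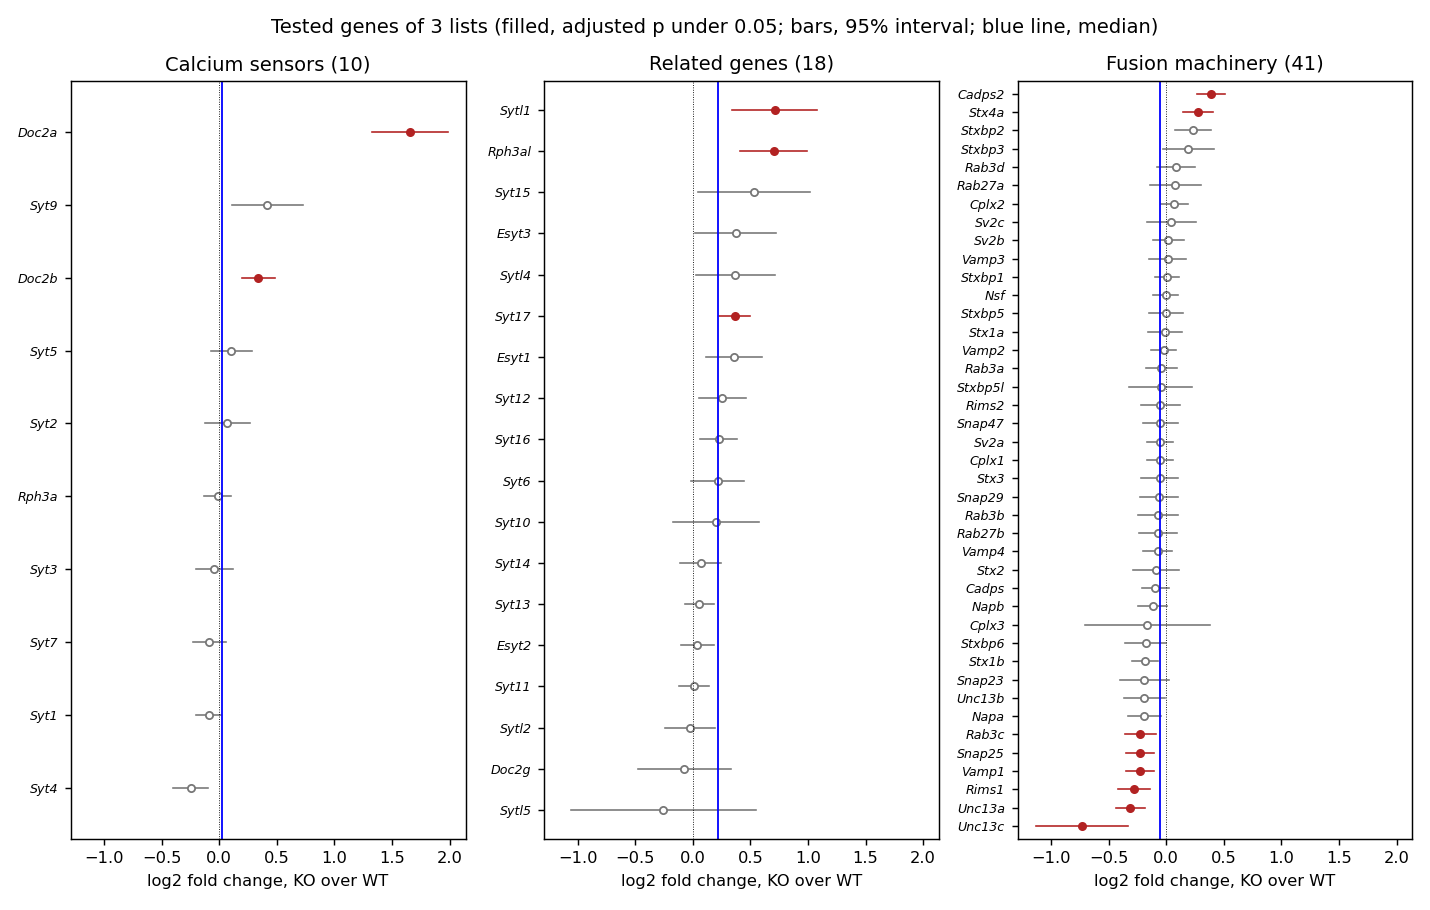
Log2 fold change (x axis) of every tested gene among the calcium sensors, related genes and fusion machinery, with 95% intervals. Filled red points passed the adjusted threshold and blue lines mark list medians of 0.03, 0.22 and -0.06. Doc2a at 1.65 has the highest value of the 3 lists.

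Few genes around Doc2a and Doc2b were called. Within 100 kb of the start of Doc2a, 15 other genes were tested, of which 1 rose and 1 fell, beside 5.90% and 1.05% over all tested genes, so the share that rose was near the background. The gene that rose was Mapk3, which encodes the kinase ERK1 and starts upstream (-87.8 kb), at 144 ± 12.9 CPM in WT and 183 ± 8.78 CPM in KO (log2 fold change 0.35, SE 0.0713, adjusted p = 0.00755). Without KO replicate 2 its edgeR adjusted p was 0.0501. The gene that fell was Hirip3, a histone chaperone gene that starts 14.6 kb downstream, from 33.1 ± 4.27 to 26.3 ± 1.00 CPM (-0.33, SE 0.0926, adjusted p = 0.0472). The call of Hirip3 was lost in 8 of its 13 alternatives, among them limma-voom (adjusted p = 0.0539) and 5 of the 6 fits that left out a library (edgeR adjusted p of 0.0904 to 0.210). The nearest tested gene upstream, Aldoa, a glycolytic enzyme, measured 1383 ± 206 and 1416 ± 70.5 CPM (adjusted p = 0.871).

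Within 100 kb of the start of Doc2b, 4 genes were tested and 0 were called by edgeR, DESeq2 or limma-voom, and 0 had an unadjusted p under 0.05. The nearest on each side were the noncoding genes Gm12339 (log2 fold change -0.38, SE 0.336) and Gm16075 (-0.34, SE 0.387), both under 1 CPM. The next protein-coding gene upstream of Doc2b is Rph3al, at chromosome 11, 75830999 to 75938429, on the same strand, with 34.9 kb between the genes and 142 kb between their starts. Its rise is given above, and its position was looked up after its value was seen.

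**Figure D5:**
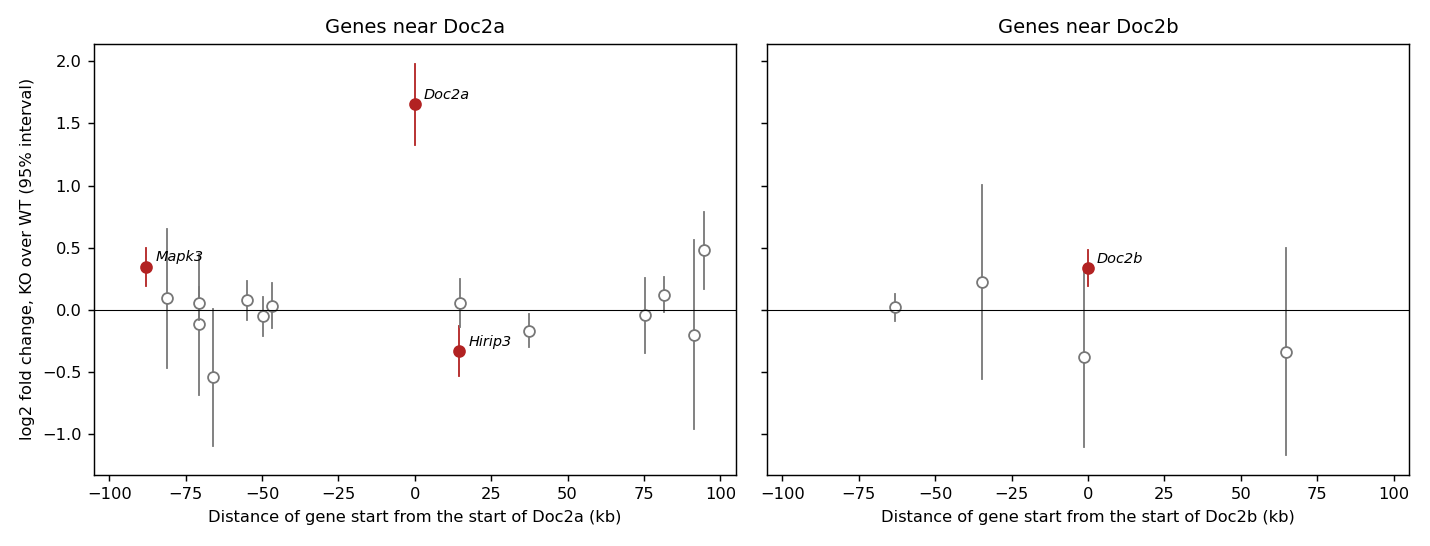
Log2 fold change with 95% interval (y axis) of tested genes against the distance of their start from that of Doc2a (left) or Doc2b (right) in kb (x axis, increasing along the chromosome). Filled points passed the adjusted threshold. Near Doc2a these are Mapk3 at 0.35 and Hirip3 at -0.33, and near Doc2b there are 0 besides Doc2b itself.

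The tested genes whose levels followed Doc2a most closely over the 6 libraries were Borcs6, Metrnl and 2410004P03Rik. Likeness was Pearson's r of log2 CPM among 15300 genes with a mean of at least 1 CPM, and the values were 0.997, 0.995 and 0.995. With 2 groups of 3 libraries such values are high for any gene that differs between the groups, and they are given as a description. Borcs6, a subunit of a complex that positions lysosomes, rose from 16.9 ± 1.54 to 25.6 ± 1.21 CPM, and Metrnl, a secreted protein, from 5.77 ± 0.783 to 9.47 ± 0.765 CPM.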

How the data were processed

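Polyadenylated RNA of 6 hippocampal libraries (3 KO, 3 WT) was analysed from whole-number read counts per gene, deposited by the authors as raw counts. Per the submitters' processing notes, cutadapt 1.18, HISAT2, HTSeq 0.11.1 and GRCm38 (mm10) were used. The sources used here give neither the annotation release nor the strand setting. Identifiers were matched to GENCODE M21, and 446 of 48795 did not match. Genes were filtered with filterByExpr (minimum count 10, minimum total 15), leaving 16861, scaled with TMM and fitted by group in edgeR. P-values are from its quasi-likelihood test, adjusted after Benjamini-Hochberg over all 16861 genes, with a threshold of 0.05. The SE is the fold's size divided by the square root of F. Length is the union of annotated exons. Calcium positions were found by local alignment of translated principal transcripts to Syt1 (Biopython 1.88). The procedure was tested on simulated data.

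Members and lists were chosen with earlier results of these data known. Named genes were all members, Kdm1a and Kdm5c, up to 6 called genes by adjusted p in each of 2 related lists, the nearest tested and called genes within 100 kb of Doc2a or Doc2b, the 3 genes most like Doc2a, and the 2 most abundant principal neuron and choroid plexus markers. Unc13c, Rab3c, Syt11 and Doc2g, and the antisense partners of members, were named after their values were seen. Alternatives comprised DESeq2 and limma-voom as tools, RLE or plain library size as scaling, a filter of 1 CPM in 3 libraries or none, the replicate number as a block, each library left out in turn, and 0.01 as threshold. Software was R 4.3.3, edgeR 4.0.16, limma 3.58.1, DESeq2 1.42.0 and scipy 1.17.1.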

Additional observations from a re-analysis of the deposited data

How the results depend on the processing

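Doc2a and Doc2b kept their direction and passed in all 13 alternatives, so the number of members that rose was 2 in each. The number that fell was 1 (Syt4) in place of 0 with RLE scaling, DESeq2, limma-voom, no filter or a replicate block, and 0 to 1 on leaving out a library. The log2 fold change of Syt4 was then -0.25 with each of these settings (adjusted p = 0.0499, 0.0201, 0.0464, 0.0182 and 0.0421) and -0.31 to -0.19 on leaving out a library. Directions of members far from the threshold turned in 4 fits: Rph3a was 0.00536 with library size alone, and on leaving out a library Rph3a ranged from -0.0427 to 0.0116, Syt2 from -0.00290 to 0.151 and Syt3 from -0.120 to 0.0327. The cause of these differences was not tested.

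Of fusion machinery genes, 1 rose and 1 fell at a threshold of 0.01. On leaving out a library, 1 to 3 rose and 1 to 8 fell. Near Doc2a and Doc2b, 0 fell with library size alone, limma-voom, at least 1 CPM in 3 libraries or a threshold of 0.01, and 0 to 1 rose and 0 to 1 fell on leaving out a library. Over all genes 614 rose and 47 fell at 0.01, 279 fell with no filter, and 48 to 323 fell on leaving out a library.

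Replicate numbers are shared between the groups. Deviations from the group means of same-numbered libraries correlated at 0.00465, -0.00921 and -0.0240. Pairs with unlike numbers ranged from -0.124 to 0.128. With 3 libraries per group, these values cannot tell whether same-numbered libraries had anything else in common. With the replicate number as a block, Doc2a had a log2 fold change of 1.66 and Doc2b 0.34, and the members' calls differed only in Syt4. Doc2a and Syt9, the members with the fewest reads, have the widest intervals of the members.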
